A study of Mus musculus with 6 samples.

Results

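A set of 42 genes of the cell cycle was followed over 6 arrays of mouse neural progenitor cells (NPCs), 3 from the tail and 3 from the brachial level of the embryo. The members are the transcript clusters annotated to 1 of these symbols and to no other, a transcript cluster being the set of probes for 1 transcribed locus. Of the 42 genes 40 were measured in this way, out of 22180 genes in all. *Ccnb1* had no transcript cluster of its own, and *Ccne2* shared its only one with a neighbouring gene, so neither was measured. The 40 genes comprised 19 of the 20 genes of the G2 phase and mitosis (G2/M), all 13 of the S phase, 3 of the 4 regulators of the G1/S transition, the 3 D cyclins and 2 inhibitors of cyclin-dependent kinases (CDKs).

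A dividing cell passes from G1 through S phase, in which the DNA is copied, and G2 into mitosis. D cyclins with CDK4 or CDK6 inactivate the retinoblastoma protein in G1, which frees the E2F factors to switch on the genes of DNA replication. The genes of mitosis are switched on later, in G2, by B-MYB, FOXM1 and the MuvB complex, and the inhibitors p21 and p27 hold CDKs back. In the neural tube, progenitors divide until they leave the cycle to become neurons or glia, and progenitors kept as neurospheres divide in response to growth factors.

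The tail NPCs and the brachial NPCs came from embryos labelled both E12.5 and E12 in the sample records and E12 in the paper. The records call the cells neural stem cells and give neither strain nor genotype, and the paper names C57BL/6 mice for its work on wild-type animals without saying which animals the arrays came from. Cells of both groups were grown as floating neurospheres in serum-free N2 and B27 medium, with bFGF and EGF, growth factors that keep neural progenitors dividing, added daily. The tail dissections aimed to leave out the somites. The records do not say whether the 3 samples of a group were separate cultures or litters. Each p-value below therefore sets a difference against the spread between such samples, which may not be the spread between litters.

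Each value is a log2 signal, on which a difference of 1 is a 2-fold difference, and the levels of single cell cycle genes are not compared with one another. Instead, each gene was expressed as its deviation from its own mean over the 6 arrays. The values were brought to a common distribution over the arrays by the authors, and in bulk RNA fewer dividing cells and less RNA of a gene per cell cannot be told apart. All 14 measured neural progenitor markers lay above the median over all transcript clusters on every array. That median was 4.82 to 4.91 over the arrays, a low bar that does not tell the cell type. Of the 14 markers, 9 had a lower mean in tail than in brachial NPCs. *Sox2*, for example, had 9.55, 10.64 and 10.23 in tail replicates 1 to 3, against 10.72, 10.78 and 10.77 in their brachial counterparts.

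In tail replicates 1 and 2 the genes of mitosis stood together above the other 4 arrays, and in tail replicate 3 they stood together below the other tail arrays. The mean deviation of the 19 G2/M genes was 0.78, 0.75 and -0.75 in tail replicates 1 to 3, against -0.14, -0.0022 and -0.65 in brachial replicates 1 to 3. Within each group, then, 1 array was low, and it was replicate 3 in both. The 13 S-phase genes had mean deviations of 0.63, 0.28 and -0.38 in tail NPCs and of -0.075, -0.34 and -0.11 in brachial NPCs. They followed the G2/M genes in the tail arrays with a smaller amplitude and did not follow them in the brachial arrays.

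**Figure D1:**
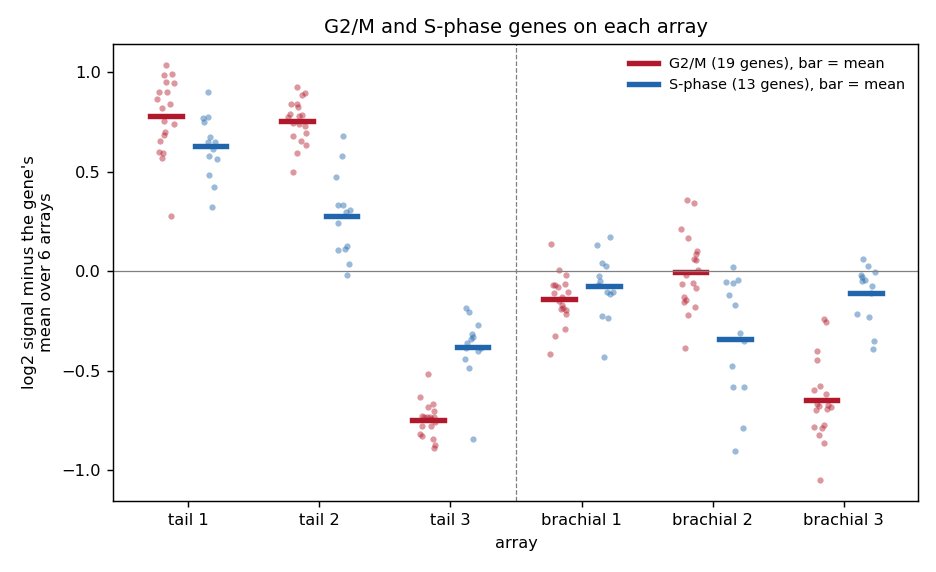
Deviation of each G2/M gene (19, red) and each S-phase gene (13, blue) from its own mean over the 6 arrays, in log2 units, by array, with a bar at the mean of each class. In tail replicate 3 the G2/M mean is -0.75 and the S-phase mean -0.38, and in brachial replicate 3 the G2/M mean is -0.65 and the S-phase mean -0.11.

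No cell cycle gene passed the test between tail and brachial NPCs. By limma, at a Benjamini-Hochberg adjusted p under 0.05, 0 of the 40 genes were higher in tail NPCs, where 0.0631% of all genes were, and 0 were lower, where 0.0406% of all genes were. At an unadjusted p under 0.05 only *Tyms* was higher and only *Ccnd1* lower, 1 gene in each direction, against 5.43% and 6.39% of all genes. In no member were all tail arrays above all brachial arrays (6.88% of all genes), and in 1, *Ccnd1*, all tail arrays were below all brachial arrays (9.36% of all genes). The signs of the differences were nevertheless shared. All 19 G2/M genes and all 13 S-phase genes had a higher mean in tail than in brachial NPCs, with median log2 differences of 0.53 and 0.31, while 44.77% of all genes had a difference above 0 and the median over all genes was -0.028. These genes vary together over the arrays, so the shared signs are not separate observations.

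**Figure D2:**
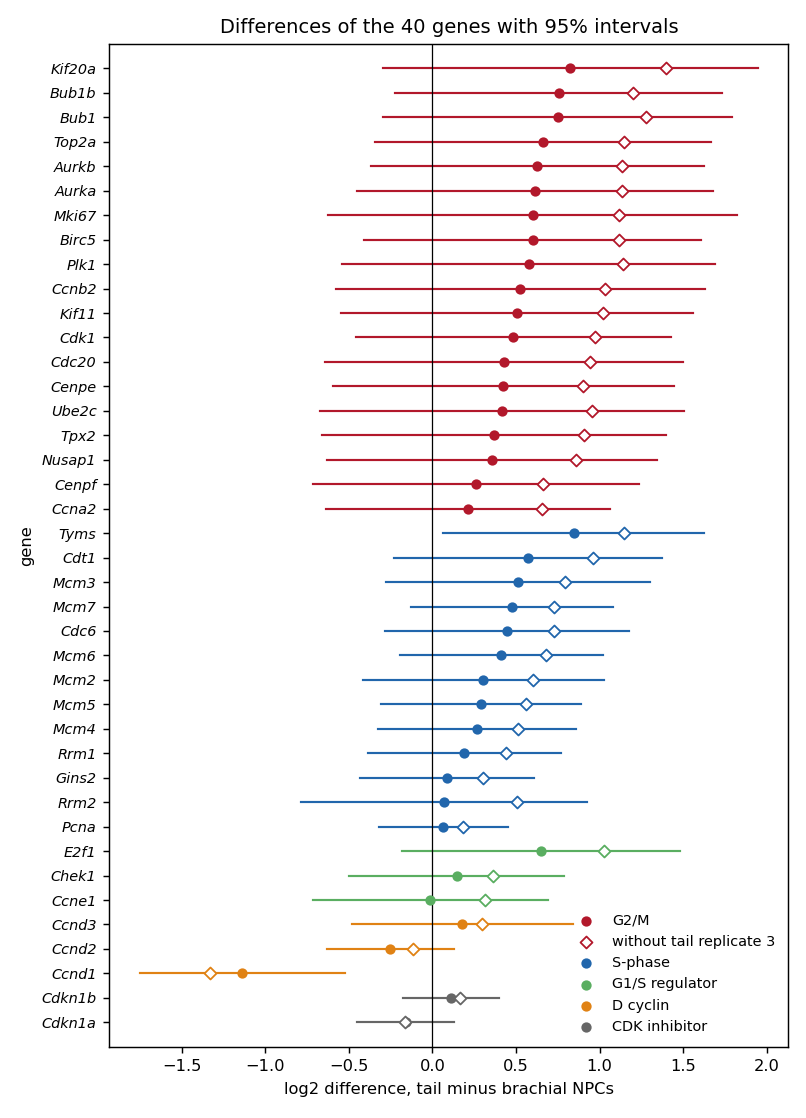
Log2 difference of tail minus brachial NPCs for the 40 genes (filled circles) with its 95% interval from limma (lines), and the same difference without tail replicate 3 (open diamonds). The interval of *Tyms* lies above 0, that of *Ccnd1* lies below it, and those of the other genes cross it.

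Tail replicate 3 stood apart from the other tail arrays. Its deviation from the mean of tail replicates 1 and 2 averaged -1.51 over the G2/M genes and -0.83 over the S-phase genes. All 19 G2/M genes, all 13 S-phase genes and all 3 G1/S regulators were lower in tail replicate 3 than in both other tail arrays, which held for 33.56% of all genes. By 1 or more on the log2 scale it was lower than their mean for 19 of 19 G2/M genes and 2 of 13 S-phase genes, *Rrm2* and *Cdt1*, against 2.489% of all genes. Tail replicate 3 was the lowest of the 6 arrays for 12 G2/M genes and 6 S-phase genes (14.68% of all genes). It lay on average 0.48 below the brachial mean over the G2/M genes and 0.21 below it over the S-phase genes.

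Without tail replicate 3 the tail minus brachial differences of both classes were larger. The mean was 1.03 over the G2/M genes and 0.63 over the S-phase genes without that array, against 0.53 and 0.35 with it. Limma then called 1 of the 40 genes higher, *Kif20a* (adjusted p = 0.04991), and 0 lower, where it called 0.622% of all genes higher and 0.577% lower. Before adjustment, at p under 0.05, 29 members were higher (18 of 19 G2/M, 10 of 13 S-phase and 1 of 3 G1/S genes) and 1 was lower, against 7.55% and 8.26% of all genes. In 33 of the 40 genes both remaining tail arrays lay above every brachial array, as they did in 14.7% of all genes. Tail replicate 3 was singled out with its values known. The sample records and the paper give no reason to leave it out, and scanner files and dates were not used.

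The balance between the S-phase and G2/M genes differed from array to array more than between the groups. The mean deviation of the S-phase genes minus that of the G2/M genes was -0.15, -0.48 and 0.36 in tail NPCs, and 0.064, -0.34 and 0.54 in brachial NPCs. As tail minus brachial it came to -0.18, with standard deviations of 0.42 over the tail arrays and 0.44 over the brachial arrays. Replicate 3 of either group stood on the S-phase side and replicate 2 of either group on the G2/M side. Without tail replicate 2 the tail minus brachial balance was 0.018 and without brachial replicate 3 it was 0.049, so its sign rested on single arrays.

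Among the brachial arrays the classes came apart. Brachial replicate 3 was the lowest brachial array for 18 of 19 G2/M genes but for 1 of 13 S-phase genes, against 28.49% of all genes. Brachial replicate 2 was the highest of the 3 for 14 of 19 G2/M genes, against 8251 of all 22180 genes. It was the lowest of the 3 for 6 of 13 S-phase genes (46.15%), not far from the 31.5% of all genes. The G2/M genes were on average 0.58 lower in brachial replicate 3 than in the mean of brachial replicates 1 and 2, and the S-phase genes were 0.098 higher.

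**Figure D3:**
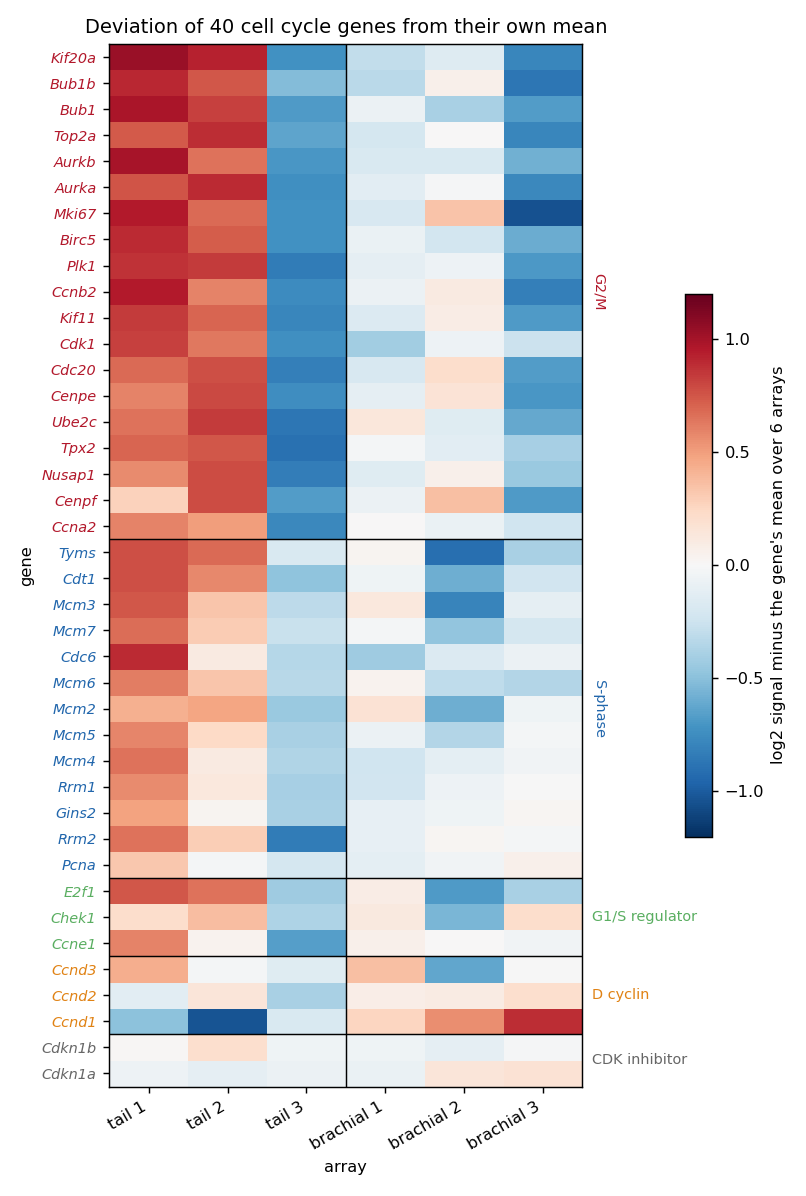
Deviation of each of the 40 genes from its own mean over the 6 arrays (red, above; blue, below; log2 units), with genes in rows by class and by the size of their difference, and arrays in columns, tail left of brachial. The G2/M block is red in tail replicates 1 and 2 and blue in tail replicate 3 and brachial replicate 3. Rows that do not share this pattern include those of *Ccnd1*, *Ccnd2* and *Cdkn1a*, and the row of *Cdkn1b* deviates little on any array.

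Promoter windows of some members are shown, from 250 bases before to 50 bases after the transcription start. They came from RefSeq, assembly GRCm38.p6, read 5′ to 3′ on the strand of the gene. In the G2/M and S-phase classes, the 3 named members with the largest differences and a single window were taken. The window of *Tyms*, 1 of these, is described below but not printed. No window was found for *Kif20a*, the G2/M gene with the largest difference. *Bub1* and *Bub1b* encode kinases of the spindle checkpoint, *Top2a* encodes the topoisomerase that untangles chromosomes, *Cdt1* encodes the factor that loads the replicative helicase, and *Mcm3* encodes a subunit of that helicase. Capitals mark 3 kinds of motif on either strand: the cell cycle genes homology region (CHR, TTTGAA or TTCGAA), to which MuvB complexes bind, the CCAAT box (CCAAT) of the factor NF-Y, and an E2F motif (TTCCCGC or TTGGCGC or TTCGCGC or TTGCCGC). Motifs of 1 kind may overlap each other or another kind.
*Bub1* (chr2:127831810-127832109, minus strand): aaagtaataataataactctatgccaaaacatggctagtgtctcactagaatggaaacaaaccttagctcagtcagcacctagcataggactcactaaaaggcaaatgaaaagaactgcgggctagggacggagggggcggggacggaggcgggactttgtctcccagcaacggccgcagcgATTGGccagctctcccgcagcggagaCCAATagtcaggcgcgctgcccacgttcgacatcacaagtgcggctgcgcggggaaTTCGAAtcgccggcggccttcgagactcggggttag
*Bub1b* (chr2:118597961-118598260, plus strand): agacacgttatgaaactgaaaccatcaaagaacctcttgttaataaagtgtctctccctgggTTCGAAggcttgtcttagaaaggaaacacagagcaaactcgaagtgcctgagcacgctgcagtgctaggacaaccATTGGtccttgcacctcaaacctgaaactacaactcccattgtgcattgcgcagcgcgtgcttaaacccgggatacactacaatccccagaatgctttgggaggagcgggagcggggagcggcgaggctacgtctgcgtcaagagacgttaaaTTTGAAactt
*Top2a* (chr11:99024140-99024439, minus strand): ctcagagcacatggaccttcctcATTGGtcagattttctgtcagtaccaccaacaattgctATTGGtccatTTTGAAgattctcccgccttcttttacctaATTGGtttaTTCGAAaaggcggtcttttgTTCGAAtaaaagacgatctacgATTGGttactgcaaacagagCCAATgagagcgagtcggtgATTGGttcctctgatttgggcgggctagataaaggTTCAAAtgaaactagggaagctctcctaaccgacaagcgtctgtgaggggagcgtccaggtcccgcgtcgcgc
*Cdt1* (chr8:122567765-122568064, plus strand): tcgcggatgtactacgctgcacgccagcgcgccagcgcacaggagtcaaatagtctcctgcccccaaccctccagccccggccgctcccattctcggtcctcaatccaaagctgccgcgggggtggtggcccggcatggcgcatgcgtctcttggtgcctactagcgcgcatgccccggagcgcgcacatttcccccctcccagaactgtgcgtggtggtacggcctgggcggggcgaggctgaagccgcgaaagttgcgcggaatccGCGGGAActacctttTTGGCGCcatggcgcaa
*Mcm3* (chr1:20820263-20820562, minus strand): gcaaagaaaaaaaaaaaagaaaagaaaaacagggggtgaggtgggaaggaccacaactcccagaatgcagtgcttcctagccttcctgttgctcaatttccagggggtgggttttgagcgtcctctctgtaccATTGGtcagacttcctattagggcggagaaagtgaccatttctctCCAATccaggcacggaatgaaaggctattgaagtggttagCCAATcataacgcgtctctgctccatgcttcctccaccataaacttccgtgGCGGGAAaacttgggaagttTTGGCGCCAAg

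The *Top2a* window held 4 CHR motifs and 6 CCAAT boxes, *Bub1* 1 and 2, and *Bub1b* 2 and 1, and none of these 3 windows held an E2F motif. *Cdt1* held 2 E2F motifs and neither other kind, and *Mcm3* held 3 E2F motifs, 2 of which overlap, with 3 CCAAT boxes. *Tyms*, the S-phase gene with the largest difference, had none of the 3 kinds in its window. A window was found for 32 of the 40 measured genes. A CHR motif stood in 12 of 15 G2/M windows (80%) and 2 of 11 S-phase windows (18.2%), against 21.7% of the 27025 genes with a window. An E2F motif stood in 2 of 15 G2/M windows (13.3%) and 8 of 11 S-phase windows (72.7%), against 10.9% of all genes. The CCAAT box was in 13 of 15 and 8 of 11 windows, and in 41.1% of all genes. Such matches of letters describe the windows and do not show that a factor was bound there. The G2/M genes *Nusap1* and *Birc5* had none of the 3 kinds, and *Cenpe* had no CHR motif. Tail replicate 3 differed from the mean of the other tail arrays by -1.51, -1.54 and -1.43 for these genes. The median over the G2/M genes was -1.54. Whether the motifs bear on the shared movement of the class was not tested.

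In the 6 G2/M genes with the largest differences, tail replicates 1 and 2 were above every brachial array and tail replicate 3 was not, while the order within each group differed from gene to gene. *Kif20a*, which encodes a kinesin of cytokinesis, had 9.08, 8.97 and 7.32 in tail replicates 1 to 3, against 7.76, 7.89 and 7.26 in brachial replicates 1 to 3. Tail replicates 1 and 2 were above all brachial arrays, and tail replicate 3 was close to the lowest of them. The difference was 0.82 ± 0.47 (SE, n = 3 arrays a group; 95% interval -0.30 to 1.94; limma adjusted p = 0.551). *Bub1b* had 8.19, 8.03 and 6.76 in tail NPCs, against 6.96, 7.34 and 6.42 in brachial NPCs, a difference of 0.75 with the smallest adjusted p of the G2/M genes (0.535). *Bub1* had 8.66, 8.50 and 6.995 in tail NPCs, against 7.61, 7.29 and 7.003 in brachial NPCs. In both genes tail replicates 1 and 2 were again above all brachial arrays, and tail replicate 3 was not. The windows of both, shown above, hold CHR motifs and CCAAT boxes.

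*Top2a* had 9.90, 10.05 and 8.53 in tail NPCs, against 8.95, 9.17 and 8.38 in brachial NPCs. *Aurkb*, the kinase of the chromosomal passenger complex, had 9.15, 8.82 and 7.46 in tail NPCs, against 7.98, 7.98 and 7.59 in brachial NPCs. *Aurka*, the kinase of the spindle poles, had 8.17, 8.31 and 6.68 in tail NPCs, against 7.29, 7.40 and 6.64 in brachial NPCs. For these 3 genes tail replicate 3 stood close to the lowest brachial array, on either side of it. *Plk1*, a kinase that acts from mitotic entry to exit, had 9.33, 9.30 and 7.62 in tail NPCs, against 8.35, 8.40 and 7.77 in brachial NPCs. *Tpx2*, which activates Aurora A on the spindle, had 9.64, 9.68 and 8.05 in tail NPCs, against 8.92, 8.81 and 8.53 in brachial NPCs. *Ube2c*, the ubiquitin-conjugating enzyme of the anaphase-promoting complex, had 8.54, 8.72 and 7.01 in tail NPCs, against 8.02, 7.74 and 7.27 in brachial NPCs. In *Plk1*, *Tpx2* and *Ube2c*, tail replicate 3 was below every other array.

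Over all 19 G2/M genes the log2 difference ranged from 0.21 for *Ccna2*, the cyclin of S phase and G2, to 0.82 for *Kif20a*, and the adjusted p from 0.535 to 0.866. The standard deviation over the 3 tail arrays was between 0.73 and 0.99, with a median of 0.90. Over the 3 brachial arrays it was between 0.12 for *Ccna2* and 0.70 for *Mki67*, the gene of the proliferation antigen Ki-67, with a median of 0.38. The drop of tail replicate 3 below the mean of the other tail arrays was of similar size throughout, with differences between -1.71 for *Kif20a* and -1.19 for *Cenpf*, a kinetochore protein gene.

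The S-phase genes were more unequal. *Tyms*, whose product makes the thymidylate for DNA, had 7.24, 7.14 and 6.28 in tail replicates 1 to 3, against 6.49, 5.56 and 6.08 in brachial replicates 1 to 3. Its difference of 0.84 ± 0.33 (SE, n = 3 arrays a group; 95% interval 0.065 to 1.62) was the largest of all 40 genes in the upward direction and did not pass the adjustment (limma adjusted p = 0.394). The groups overlapped, since tail replicate 3 lay below brachial replicate 1. *Cdt1* had 8.77, 8.58 and 7.51 in tail NPCs, against 7.95, 7.42 and 7.77 in brachial NPCs. *Cdc6*, which loads the helicase together with *Cdt1*, had 7.56, 6.77 and 6.32 in tail NPCs, against 6.23, 6.49 and 6.58 in brachial NPCs. In *Cdc6* tail replicate 1 was high on its own and brachial replicate 1 was the lowest of the 6 arrays.

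*Rrm2*, the regulated subunit of ribonucleotide reductase, had 8.99, 8.63 and 7.49 in tail NPCs, against 8.23, 8.36 and 8.31 in brachial NPCs. Its brachial arrays agreed closely and its tail arrays lay on both sides of them, so its difference was 0.071 (95% interval -0.78 to 0.93). This was also the S-phase gene with the largest drop in tail replicate 3 (-1.31). Its second transcript cluster, at a lower signal, had a difference of 0.072. *Pcna*, the sliding clamp of the replication fork, had the smallest difference of the class, 0.065, and the smallest drop in tail replicate 3, -0.36.

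The 6 subunits of the MCM helicase, *Mcm2* to *Mcm7*, had the same order of the tail arrays, except that replicate 2 was slightly above replicate 1 for *Mcm2*, and differed over the brachial arrays. Their mean deviation was 0.62, 0.30 and -0.35 in tail NPCs, and 0.0029, -0.44 and -0.13 in brachial NPCs. *Mcm3* had 9.56, 9.14 and 8.49 in tail NPCs, against 8.94, 8.02 and 8.70 in brachial NPCs, a difference of 0.51. *Mcm7* had 9.29, 8.92 and 8.35 in tail NPCs, against 8.59, 8.14 and 8.40 in brachial NPCs, a difference of 0.48. *Mcm2* had 9.14, 9.19 and 8.28 in tail NPCs, against 8.89, 8.14 and 8.67 in brachial NPCs, a difference of 0.31. In these 3 subunits brachial replicate 2 was the lowest of the 6 arrays. In *Mcm4* and *Mcm5* the lowest was tail replicate 3, and in *Mcm6* it was brachial replicate 3, with log2 differences of 0.27, 0.29 and 0.41 for *Mcm4*, *Mcm5* and *Mcm6*. The other 7 S-phase genes together had mean deviations of 0.64, 0.26 and -0.41 in tail NPCs and of -0.14, -0.26 and -0.091 in brachial NPCs.

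The measured G1/S regulators were 3. *E2f1*, an activator of the replication genes, had 7.34, 7.24 and 6.16 in tail NPCs, against 6.68, 5.91 and 6.199 in brachial NPCs, a difference of 0.65 (95% interval -0.18 to 1.48; limma adjusted p = 0.526). *Chek1*, a kinase of the replication checkpoint, had 7.76, 7.93 and 7.18 in tail NPCs, against 7.67, 7.01 and 7.76 in brachial NPCs. *Ccne1*, the cyclin E1 gene, had 7.13, 6.58 and 5.88 in tail NPCs, against 6.60, 6.54 and 6.50 in brachial NPCs. *E2f1* shared the profile of *Tyms*, high in tail replicates 1 and 2 and lowest in brachial replicate 2. The differences of *Chek1*, 0.14, and *Ccne1*, -0.013, were smaller than the spread of the tail arrays.

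The D cyclins did not move as a class. *Ccnd1*, which encodes cyclin D1, had 9.89, 9.35 and 10.21 in tail replicates 1 to 3, against 10.65, 10.94 and 11.28 in brachial replicates 1 to 3. It was the only one of the 40 genes whose groups did not overlap. Its difference was -1.14 ± 0.26 (SE, n = 3 arrays a group; 95% interval -1.75 to -0.53), the largest in size of the members (limma adjusted p = 0.223). The p before adjustment was 0.00326 in limma. Tail replicate 3, low for the mitotic genes, was the highest of the tail arrays for *Ccnd1*. When any 1 array was left out the difference stayed between -1.33 and -0.90, and the adjusted p between 0.0744 and 0.654.

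*Ccnd2* had 11.13, 11.40 and 10.87 in tail NPCs, against 11.34, 11.36 and 11.46 in brachial NPCs, a difference of -0.25 (95% interval -0.63 to 0.13). *Ccnd3* had 8.46, 8.003 and 7.88 in tail NPCs, against 8.39, 7.40 and 8.02 in brachial NPCs, a difference of 0.18 (95% interval -0.48 to 0.84). Neither difference exceeded the larger of the SDs of its groups.

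The CDK inhibitors had the smallest standard errors of the members, 0.12 each. *Cdkn1a*, the p21 gene and a target of p53, had 11.09, 11.04 and 11.08 in tail NPCs, against 11.07, 11.30 and 11.32 in brachial NPCs, a difference of -0.16 (95% interval -0.45 to 0.13). *Cdkn1b*, the p27 gene, had 8.95, 9.13 and 8.88 in tail NPCs, against 8.88, 8.83 and 8.92 in brachial NPCs, a difference of 0.11 (95% interval -0.17 to 0.40). Neither inhibitor stood out in tail replicate 3, in which the mitotic genes were low. There *Cdkn1a* was 0.015 above and *Cdkn1b* 0.16 below the mean of the other tail arrays. Of 22 measured p53 targets beyond the members limma called 0. Before adjustment, 6 were lower at p under 0.05, against 6.39% of all genes. In tail NPCs 19 had a lower mean, and the median log2 difference was -0.35. In 5 all tail arrays were below all brachial arrays (9.36% of all genes). The largest difference in size was that of *Perp*, -0.86 (limma adjusted p = 0.511). *Ddit4* came next with -0.80 (limma adjusted p = 0.231), and its groups did not overlap.

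**Figure D4:**
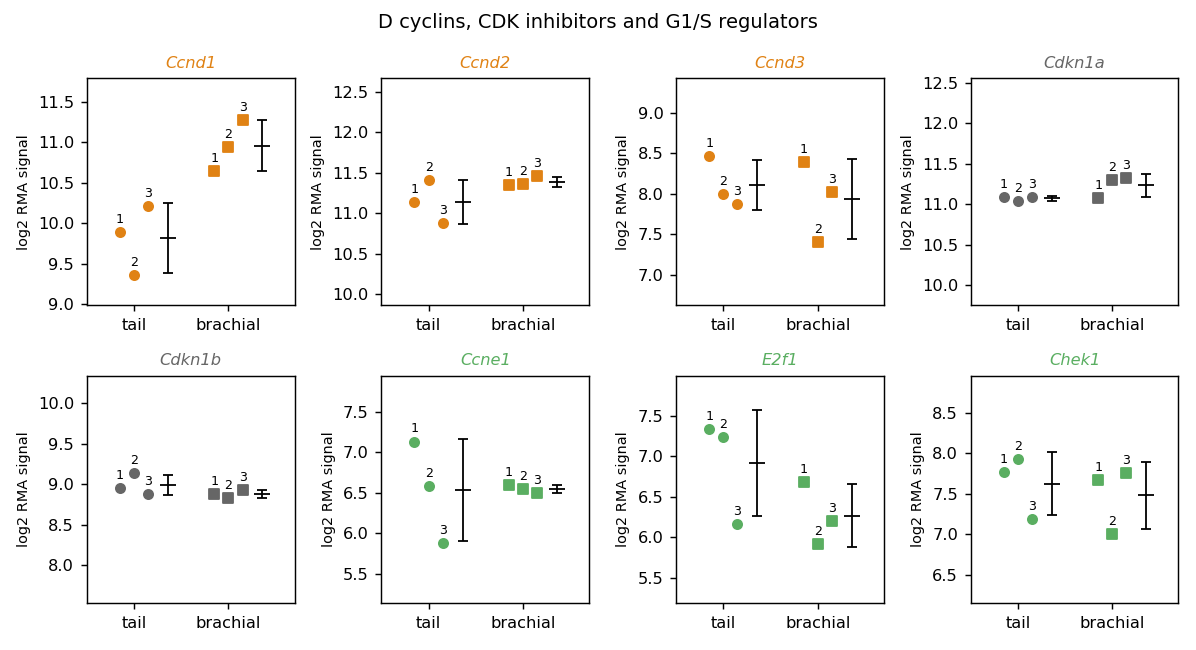
Log2 RMA signal of the D cyclins (orange), CDK inhibitors (grey) and G1/S regulators (green) on each array, numbered by replicate, with the mean and SD of 3 arrays a group in black, tail left of brachial. All panels span the same range of log2 units around the gene's mean, and the groups are apart only in *Ccnd1*, with 9.35 to 10.21 in tail and 10.65 to 11.28 in brachial NPCs.

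Genes of the cycle outside the members followed the members of their phase with a smaller amplitude. Beside the counts of these and all further lists stand the shares of all genes at an unadjusted p under 0.05 in limma, 5.43% higher and 6.39% lower. Of 60 other measured G2/M genes limma called 0 (before adjustment, 1 in each direction at p under 0.05), 52 had a higher mean in tail NPCs, and the median log2 difference was 0.31. In 38 of the 60, tail replicate 3 was lower than the mean of the other tail arrays by 1 or more. *Kif23*, a kinesin of the central spindle, had 8.73, 8.67 and 6.77 in tail NPCs, against 7.49, 7.43 and 6.83 in brachial NPCs. *Ncaph*, next to it in the size of the difference, had 9.23, 9.06 and 8.56 in tail NPCs, against 8.18, 8.26 and 8.12 in brachial NPCs. For *Ncaph* tail replicate 3 was above every brachial array. Of 41 other measured S-phase genes limma called 0 (before adjustment, 2 higher and 1 lower at p under 0.05), 33 had a higher mean in tail NPCs, the median was 0.21, and tail replicate 3 was lower by 1 or more in 5. *Tk1*, the thymidine kinase gene, had 8.20, 7.68 and 6.98 in tail NPCs, against 6.94, 6.52 and 6.74 in brachial NPCs, a difference of 0.89 (limma adjusted p = 0.347). In the promoter windows of these lists, a CHR motif stood in 69.6% of 56 other G2/M genes and 21.9% of 32 other S-phase genes, and an E2F motif in 26.8% and 68.8%.

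Of 40 measured regulators of the cycle outside the members, limma called 0 (before adjustment, 2 higher and 4 lower at p under 0.05), and 22 had a higher and 18 a lower mean in tail NPCs. All tail arrays were above all brachial arrays in 2 of them (6.88% of all genes) and below in 5 (9.36%). The largest difference belonged to *Cdk6*, a kinase partner of the D cyclins, with 8.41, 9.57 and 9.57 in tail NPCs, against 7.14, 6.56 and 4.11 in brachial NPCs. Its groups did not overlap, and the difference was 3.25 ± 0.78 (SE, n = 3 arrays a group; limma adjusted p = 0.244). *Rb1*, the retinoblastoma gene, had 7.97, 8.66 and 9.32 in tail NPCs, against 9.28, 9.87 and 9.48 in brachial NPCs, a difference of -0.89. *Cdk2*, the kinase partner of cyclin E, had 9.91, 9.44 and 9.11 in tail NPCs, against 9.22, 8.35 and 8.46 in brachial NPCs, a difference of 0.81. *Cdk6* and *Rb1* did not share the profile of the mitotic genes, since tail replicate 3 was not low among the tail arrays in either, whereas it was the lowest tail array for *Cdk2*.

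Markers of other cell types differed over the same arrays. The mean log2 signal of 14 mesenchyme markers was 9.69, 9.36 and 8.36 in tail NPCs, and 8.39, 5.21 and 5.25 in brachial NPCs. Of these markers 13 of 14 had a higher mean in tail NPCs. Limma called 0 of them, and 11 were higher at p under 0.05 before adjustment, against 5.43% of all genes. Tail replicates 1 and 2, high for the mitotic genes, were the highest for these markers too. Brachial replicates 2 and 3 were both low for these markers, and their mean deviations for the G2/M genes were -0.0022 and -0.65. The mean of 9 glia markers was 7.43, 7.27 and 8.79 in tail NPCs, and 8.56, 9.15 and 8.32 in brachial NPCs, with 1 of 9 higher in tail NPCs (0 called by limma and 1 lower at p under 0.05 before adjustment). Of the 14 neural progenitor markers, 5 had a higher and 9 a lower mean in tail NPCs. Limma called 0 of them (before adjustment, 1 higher and 3 lower at p under 0.05). Their largest log2 differences were -1.38 for *Slc1a3*, -1.16 for *Sox3* and, in the other direction, 0.83 for *Hes1*. Of 14 neuron markers 3 had a higher and 11 a lower mean in tail NPCs (0 called by limma, and 3 lower at p under 0.05 before adjustment). Of 8 blood and vessel markers 3 had a higher and 5 a lower mean (0 called by limma). The largest difference among these 8 was that of *Kdr*, with 9.81, 8.65 and 5.63 in tail NPCs, against 5.26, 5.44 and 5.09 in brachial NPCs. The housekeeping genes deviated by -0.13 to 0.13 on average. The part of these cells, or of RNA quality, in the values of the cell cycle genes was not tested.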

How the data were processed

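Each of 3 tail and 3 brachial NPC samples gave the RNA for 1 whole-transcript array. The deposited values are log2 signals that the authors made with RMA in Affymetrix Expression Console, versions not given in the sources used here, so background subtraction and quantile normalization were already applied. The probe annotation gives mouse genes, although a human array is named in the methods. Scanner files and dates were not used here. Values lay between 0.820 and 13.1 over 41345 transcript clusters, and 3 arrays a group limit the precision.

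Clusters with exactly 1 symbol (23521) gave 22180 genes, and a gene with several was taken at the one with the highest mean. Groups came from the sample labels. Tail and brachial NPCs were compared with limma 3.58.1 in R 4.3.3 over all genes, as tail minus brachial, with Benjamini-Hochberg adjustment, on all 6 arrays without a block. The step was tested on simulated data in which the noise of each gene was independent. Genes that vary together over the arrays, as the members do, were not simulated. An exact permutation test of 3 against 3 cannot go below p = 0.1 and was not used.

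The members and all lists were chosen with earlier results of these data known. Values per array were given for members called or with a log2 difference of 1 or more, for the 5 S-phase and 6 G2/M members with the largest differences, for the 4 of each with the largest difference of tail replicate 3 from the other tail arrays, and for all G1/S regulators, D cyclins and CDK inhibitors. Of each further list, called genes or else up to 3 with the largest differences could be named. *Sox2* is named outside this rule, after its values were seen. The paper chose genes on the arrays by a fold change of 2 and names no test for the arrays. It names Student's t-test for 2 groups in general. Alternatives were the replicate number as a block, other eBayes settings, array weights, that t-test and a filter on dim genes. They also included the mean over clusters, quantile normalization again, housekeeping centring, other summaries of the classes and each array left out in turn. Promoters came from RefSeq (GRCm38.p6), and plots were drawn with matplotlib 3.10.9.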

Additional observations from a re-analysis of the deposited data

How the results depend on the processing

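No member was called under any alternative except without tail replicate 3. Members called higher numbered 0 to 1 and members called lower 0 to 0 when each array was left out in turn. Over all genes limma called 14 higher and 9 lower. With 1 array left out it called 0 to 138 higher and 0 to 128 lower. With the replicate number as a block the counts were 123 and 71, and with array weights 19 were lower. Student's t-test called 0 and 0 (816 and 1050 before adjustment at p under 0.05, among them 0 and 1 members). The block called 0 members, and before adjustment 7 were higher and 1 lower at p under 0.05. Deviations from the group means correlated at 0.244, -0.118 and 0.215 between same-numbered arrays 1 to 3. Arrays 1 and 3 of each group correlated best with their own number and arrays 2 did not, and no source says what a number marks, so the arrays were not treated as pairs.

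Of 24 named members, 20 kept the sign of their difference under all 14 alternatives. *Rrm2* was -0.24 without tail replicate 1, -0.060 without tail replicate 2 and at most 0.51 (without tail replicate 3). *Ccne1* was 0.0096 with array weights, 0.31 without tail replicate 3, 0.012 without brachial replicate 1 and at least -0.31 (without tail replicate 1). *Chek1* was -0.0059 without tail replicate 2 and -0.092 without brachial replicate 2, and at most 0.37 (without tail replicate 3). *Ccnd3* was -0.089 without brachial replicate 2 and at most 0.40 (without brachial replicate 1). The cause was not tested. With 1 array left out, the mean difference lay between 0.12 and 0.63 for the S-phase genes and between 0.27 and 1.03 for the G2/M genes, and the S-phase minus G2/M balance between -0.40 and 0.049. Housekeeping centring gave 0.28 and 0.46 for the 2 classes. All members were brighter than the limit for dim genes.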

Other observations

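Histone genes, many of which are transcribed in S phase, were looked at as a further group after their values had been seen. They were taken by symbol, so genes not tied to S phase may be among them. Of 29 measured genes with symbols of H1, H2A, H2B, H3 and H4 histones, limma called 0 (before adjustment, 3 higher at p under 0.05). In tail NPCs 25 had a higher mean, and the median log2 difference was 0.34. Their mean deviation was 0.37, 0.35 and -0.19 in tail NPCs, and 0.19, -0.41 and -0.31 in brachial NPCs. *H1f5*, a linker histone gene, had 8.30, 7.85 and 6.86 in tail NPCs, against 7.10, 6.52 and 6.41 in brachial NPCs, a difference of 0.99 (limma adjusted p = 0.386). Tail replicate 3 was within the range of the brachial arrays for the mean of the group.

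Of 16 stress genes limma called 0 (before adjustment, 0 at p under 0.05), and their mean deviation was 0.37, -0.17 and -0.27 in tail NPCs, and 0.61, 0.027 and -0.57 in brachial NPCs. The 8 muscle markers deviated by 1.404 in brachial replicate 1 and by -0.43 to -0.12 in the other 5 arrays.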
